A study of Mus musculus with 8 samples.

Results

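The mitochondrial ribosomal proteins are the building blocks of the ribosome inside mitochondria, and their genes carry symbols that begin with Mrpl (large subunit) or Mrps (small subunit). They were chosen by symbol alone, as every gene whose symbol is Mrpl or Mrps followed by a digit, with the row of highest total count standing for a gene that had several rows. This gave 77 genes, 48 Mrpl and 29 Mrps, of the 23372 gene symbols in the count table. All 77 passed the filter on low counts, which left 14178 genes for testing, so no member was lost before the comparison.

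RNA was taken from brown adipose tissue, the heat-producing fat, of C57BL/6 N mice aged 10 weeks and sequenced on an Illumina instrument. Knockout mice carried floxed alleles of Lsd1 and Cre recombinase driven from the Ucp1 promoter, a promoter that brown adipocytes use. Control mice carried the floxed alleles, and the labels name no Cre for them, so deletion of Lsd1 and presence of the Cre transgene cannot be told apart. Lsd1, whose gene symbol is Kdm1a, is a histone demethylase, and each group had 4 libraries, numbered 511, 514, 517 and 518 (control) and 512, 513, 515 and 516 (knockout). The comparison asks what loss of Lsd1 from brown adipocytes does to gene expression in this fat.

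The mitochondrial ribosome translates the few messenger RNAs encoded by mitochondrial DNA, all of which specify core subunits of the respiratory chain and ATP synthase. Its RNA comes from mitochondrial DNA, whereas its proteins are all encoded in the nucleus, made in the cytosol and imported. Many of its proteins descend from bacterial ribosomal proteins and others were added in the mitochondrial lineage. Brown adipocytes, which are packed with mitochondria, depend on it for the respiratory chain that heat production uses.

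Promoters of 6 members are shown because they carry the motifs counted across the family further on, or lack them. Each is 150 bases, from 120 before to 30 after a RefSeq transcript start of build GRCm38.p6, written 5′ to 3′ along the plus strand, which is the strand of all 6 genes. Capitals mark matches, on either strand, to 3 motifs: GCGCNTGCG for NRF1, CCGGAAGT for ETS factors such as GABP, and AAGATGGCG for YY1. The windows are chr13:99344666-99344815 (Mrps27), chr1:79775898-79776047 (Mrpl44), chr11:120484517-120484666 (Mrpl12), chr1:42851113-42851262 (Mrps9), chr2:28467946-28468095 (Mrps2) and chr4:126046808-126046957 (Mrps15). Mrps27, with an ETS match on the minus strand and a YY1 match after the start, had the smallest p of all members, while Mrpl44 and Mrpl12 hold an NRF1 match and fell. Mrps9 holds an NRF1 match too and was not called, and of the last 2, which hold none of the motifs, Mrps2 fell most among the Mrps genes and Mrps15 had the value nearest to 0.
Mrps27: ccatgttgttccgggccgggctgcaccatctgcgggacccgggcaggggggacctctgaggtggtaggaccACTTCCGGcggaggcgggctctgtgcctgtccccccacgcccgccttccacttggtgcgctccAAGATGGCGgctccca
Mrpl44: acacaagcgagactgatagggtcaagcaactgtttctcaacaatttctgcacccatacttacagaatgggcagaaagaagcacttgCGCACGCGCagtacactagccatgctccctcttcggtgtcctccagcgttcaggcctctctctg
Mrpl12: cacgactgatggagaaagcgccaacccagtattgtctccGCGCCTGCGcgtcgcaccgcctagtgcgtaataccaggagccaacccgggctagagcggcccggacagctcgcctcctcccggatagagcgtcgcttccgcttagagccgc
Mrps9: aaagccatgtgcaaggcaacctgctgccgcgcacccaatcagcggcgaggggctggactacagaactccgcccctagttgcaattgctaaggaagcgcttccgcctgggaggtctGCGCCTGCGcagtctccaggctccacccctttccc
Mrps2: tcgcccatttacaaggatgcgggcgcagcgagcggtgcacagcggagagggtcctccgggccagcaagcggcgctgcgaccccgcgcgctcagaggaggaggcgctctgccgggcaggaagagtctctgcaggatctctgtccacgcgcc
Mrps15: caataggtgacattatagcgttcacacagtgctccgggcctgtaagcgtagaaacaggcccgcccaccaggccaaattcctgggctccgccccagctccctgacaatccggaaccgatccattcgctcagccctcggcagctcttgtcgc

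The libraries held 33011022 to 38756920 estimated counts over all rows, and levels are given as CPM, counts brought to a common library total with trimmed mean of M-values (TMM) factors. Kdm1a, the targeted gene, stood at 35.3, 35.96, 33.3 and 36.9 CPM in the controls and 13.96, 12.2, 13.2 and 13.01 CPM in the knockouts, in library order, so every library matched its label (log2 fold change -1.43, SE 0.0743, adjusted p = 2.66e-05, edgeR quasi-likelihood test with Benjamini-Hochberg adjustment). All 9 brown adipocyte markers were detected, Ucp1 among them; 4 of 9 were called lower, 2 of 9 without overlap between the groups, 8 of 9 were below 0, and their summed level was 7157 to 10309 CPM in controls and 4405 to 5136 CPM in knockouts. Of 6 general adipocyte markers 4 were called lower, and their sum was 14471 to 19758 CPM in controls and 10181 to 11805 CPM in knockouts. Over all genes tested, 18.9% were called lower, 15.4% were called higher and 19.7% were lower without overlap. Markers of skeletal muscle were also present: their 17 genes, none of them at 0, summed to 379 to 8224 CPM in controls and 9283 to 20461 CPM in knockouts, with 13 of 17 higher in every knockout than in every control (15.7% of all genes) and 2 called higher. Macrophage markers summed to 70.2 to 124 CPM and 128 to 202 CPM, with 4 of 7 called higher. Endothelial markers summed to 806 to 982 CPM in controls and 822 to 949 CPM in knockouts. Fibroblast and preadipocyte markers summed to 848 to 1985 CPM in controls and 1637 to 2567 CPM in knockouts. Both pairs of ranges overlapped, and no gene of these lists was called.

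Genes for both subunits of the mitochondrial ribosome were lower in the knockout. Of 77 members, 71 were called lower at an adjusted p under 0.05 by edgeR's quasi-likelihood test, 0 were called higher and 6 were not called. Over all genes tested, 18.9% were called lower and 15.4% higher, so the members' share of 92.2% lower stood well above the background. No member was higher at an unadjusted p under 0.05 by edgeR, and DESeq2 and limma-voom also called 0 higher. In a bulk tissue, fewer brown adipocytes and less of these RNAs per cell cannot be told apart.

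The size of the fall was modest, and much alike in the middle of the family. The median log2 fold change was -0.461, which is 1.38-fold lower or a loss of 27.3%, beside a median of -0.0123 over all genes tested. The middle 50% of the members lay between -0.559 and -0.341, and the whole range ran from -0.958 to 0.0382, with 76 of 77 below 0. For 70 members, the larger of the member's fold and the median fold was less than 25% above the smaller. That band is wide, since it holds the uncalled Mrpl13 (-0.210) and Mrps12 (-0.215) as well as Mrpl34 (-0.779). A fall of at least 1.5-fold was seen in 14 members, against 5.86% of all genes, and none fell 2-fold. In 71 members every knockout library lay below every control library, which was so for 19.7% of all genes.

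**Figure D1:**
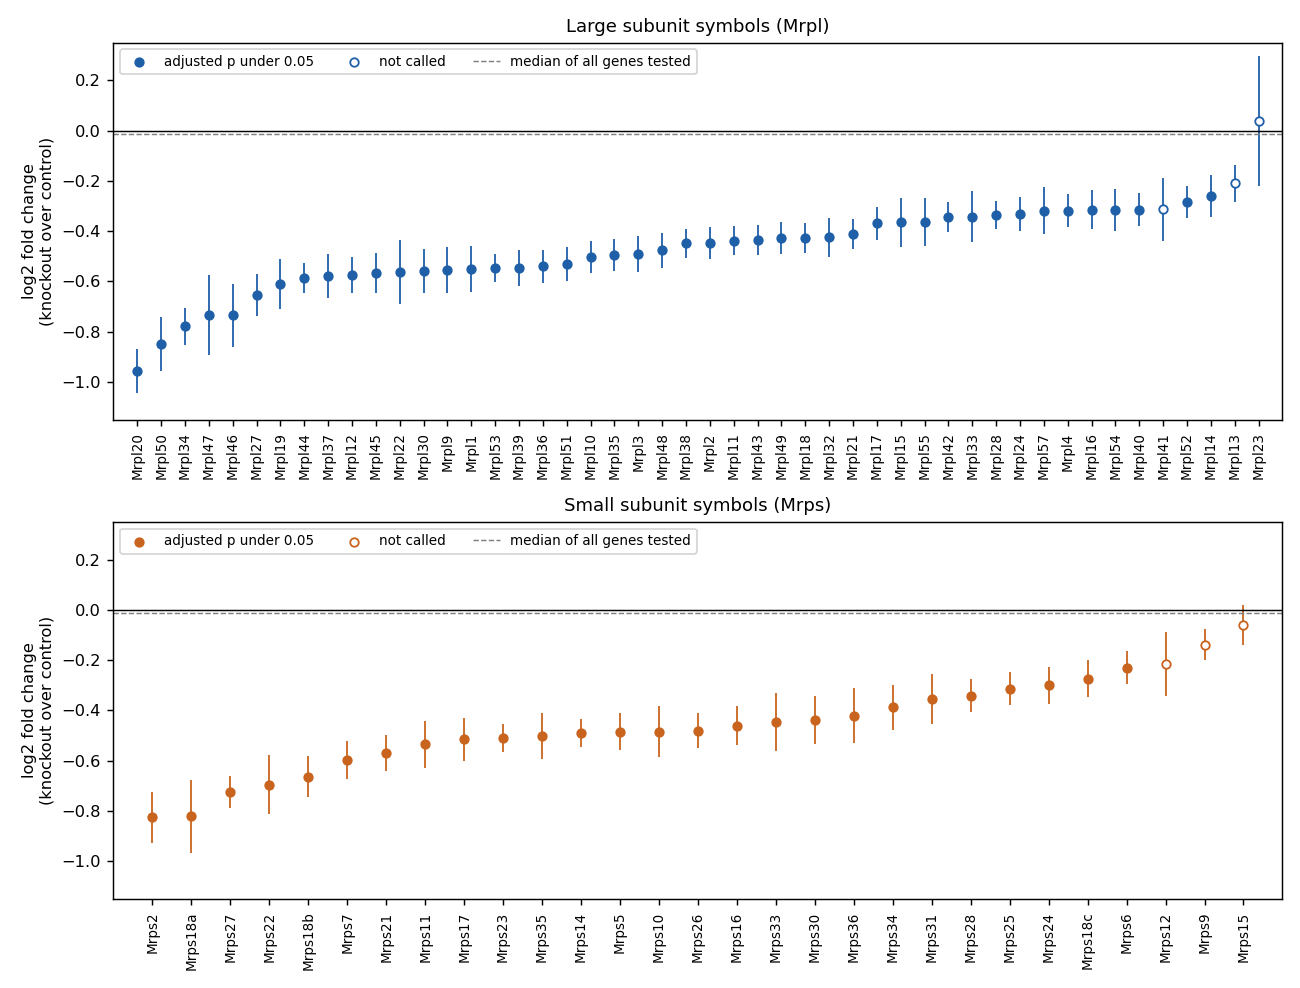
Log2 fold change (knockout over control) of each Mrpl gene (top, blue) and each Mrps gene (bottom, orange), ordered by the fall; points are the fitted values, vertical lines the approximate standard error, filled points the genes called lower (adjusted p under 0.05) and the dashed line the median of all genes tested. Of the 77 points 76 lie below 0, and the 6 open points were not called.

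The shift was present in each knockout library. The 77 members summed to 5879, 6145, 6182 and 6355 CPM in controls 511, 514, 517 and 518, and to 4416, 4268, 4498 and 4446 CPM in knockouts 512, 513, 515 and 516. All 4 knockouts thus lay below the lowest control, and the means were 6140.1 ± 197 and 4407 ± 98.7 CPM (SD, n = 4), a ratio of 0.718. As a share of the counts in the rows kept for the gene symbols, with no scaling between libraries, the members took 0.528% to 0.610% in controls. In knockouts they took 0.465% to 0.479%. In knockout 512 all 77 members lay below their control mean, and in the other 3 knockouts 76 did.

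Controls varied more than knockouts in 52 of 76 members. Control 511 had the lowest level among the controls for 32 members, and control 518 had the highest for 33. Among knockouts, library 513 was the lowest for 33 members. The median coefficient of variation of the members, leaving out Mrpl23, was 7.28% in controls and 5.31% in knockouts, and both were below the 14.2% and 9.38% of all genes.

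The marker sums of brown adipocytes, adipocytes, muscle and macrophages did not overlap between the groups, while those of endothelium and fibroblasts did. Their part in the result was not tested beyond the following values. Control 514 had the lowest muscle sum, 379 CPM, and its member sum of 6145 CPM lay between those of the other controls. Control 518, with a muscle sum of 8224 CPM, and knockout 516, with 9283 CPM, were the closest pair across groups, and their member sums were 6355 and 4446 CPM. With the muscle score as a covariate, edgeR called 54 members lower and 0 higher, against 12.5% of all genes called lower, and the median was -0.458. In that fit 37 Mrpl genes were called lower in place of 45, with a median of -0.447. For Mrps genes it was 17 in place of 26, with a median of -0.468. Calls were thus lost at nearly the same median fold. The muscle sums were 379 to 8224 CPM in controls and 9283 to 20461 CPM in knockouts, without overlap. That fit therefore cannot tell muscle content and genotype apart.

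Large and small subunit genes had near medians. Of 48 Mrpl genes 45 were called lower, with a median log2 fold change of -0.448, and of 29 Mrps genes 26 were called lower, with a median of -0.481. In every knockout the medians of the subunits were near each other: -0.449, -0.485, -0.457 and -0.441 for Mrpl in libraries 512, 513, 515 and 516, and -0.456, -0.530, -0.452 and -0.415 for Mrps. The Mrpl median was the higher in knockouts 512 and 513 and the lower in knockouts 515 and 516, so the order turned between libraries. The ratio of the Mrpl sum to the Mrps sum was 2.10 ± 0.0363 in controls and 2.06 ± 0.0301 in knockouts (SD, n = 4), and the ranges overlapped. Per length, the median Mrpl gene stood 0.302 ± 0.0806 log2 units above the median Mrps gene in controls and 0.289 ± 0.0213 in knockouts, again overlapping. The difference itself has no test here, because it is a score over members.

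Some proteins sit in the other subunit than their symbol says. Structures place Mrps30 and Mrps18a in the large subunit, and Mrps36 is a component of the 2-oxoglutarate dehydrogenase complex rather than of the ribosome. By structure, 47 of 50 large subunit genes and 23 of 26 small subunit genes were called lower, with medians of -0.448 and -0.483. Mrps30 was called lower (log2 fold change -0.44, SE 0.0955, adjusted p = 0.00802, edgeR), as was Mrps36 (log2 fold change -0.42, SE 0.109, adjusted p = 0.0171, edgeR), and without knockout 513 or 515 the adjusted p of Mrps36 was 0.0526 or 0.0510. Its count is uncertain, since 3 pseudogenes are named after it. The 3 Mrps18 paralogs were all called lower; Mrps18c is classed here as the one with a bacterial counterpart, and Mrps18a and Mrps18b as mitochondria-specific. Mrps18a stood at 54.1, 65.8, 85.6 and 81.5 CPM in the controls and 45.8, 39.3, 40.7 and 36.5 CPM in the knockouts, with controls 517 and 518 highest (log2 fold change -0.82, SE 0.144, adjusted p = 0.00304, edgeR). Mrps18b had a log2 fold change of -0.66 (edgeR, adjusted p = 0.000632) and Mrps18c one of -0.27 (edgeR, adjusted p = 0.0194), and the call for Mrps18c was lost without knockout 513 (adjusted p = 0.0618). Differences among the paralogs were not tested.

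Genes for proteins inherited from bacteria and for those added in mitochondria gave near shares and medians, with no test of the difference. Of 46 members with a bacterial counterpart 41 were called lower (median log2 fold change -0.454), and of 30 mitochondria-specific members 29 were (median -0.479). Within the large subunit the medians were -0.443 for 30 and -0.463 for 20 genes, and within the small subunit -0.473 for 16 and -0.491 for 10.

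The 3 proteins around the peptidyl transferase centre, where peptide bonds form, were all lower. Mrpl3 stood at 108, 119, 110.3 and 126 CPM in the controls and 86.8, 77.2, 83.7 and 81.8 CPM in the knockouts (log2 fold change -0.49, SE 0.0718, adjusted p = 0.00136, edgeR). Mrpl2 had a log2 fold change of -0.45 (edgeR, adjusted p = 0.00105). Mrpl16 moved least of the 3, from 91.03 ± 7.38 CPM in controls to 73.1 ± 4.57 CPM in knockouts (SD, n = 4), and its call was lost with library sizes alone, where the log2 fold change was -0.12.

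All 3 genes of the stalk, which recruits translation factors, were called lower. Mrpl12, the stalk protein, which is also reported to bind the mitochondrial RNA polymerase, had the highest level per length of all members, at 277 ± 22.4 in controls and 186 ± 6.26 in knockouts (CPM per kb, SD, n = 4). It measured 248, 250.4, 249 and 291 CPM in the controls and 173, 167, 181 and 177 CPM in the knockouts, with control 518 above the other 3 controls and every knockout below every control (log2 fold change -0.57, SE 0.0726, adjusted p = 0.000718, edgeR). Mrpl10, which anchors the stalk, went from 165 ± 9.24 CPM in controls to 116 ± 3.76 CPM in knockouts (SD, n = 4) (edgeR, adjusted p = 0.000718). Mrpl11, at the stalk base, had a log2 fold change of -0.44 (edgeR, adjusted p = 0.000894).

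All 7 proteins assigned to the central protuberance, the crown of the large subunit that faces the small one, were called lower, with a median log2 fold change of -0.449. Mrpl46 fell most among them, and stood at 36.6, 38.9, 46.3 and 55.5 CPM in the controls and 26.2, 26.5, 27.8 and 26.02 CPM in the knockouts. Its controls spread widely, with 518 highest, while its knockouts lay within a narrow range (log2 fold change -0.73, SE 0.125, adjusted p = 0.00266, edgeR). Mrpl27 followed with -0.65, then Mrpl48 with -0.48, Mrpl38 with -0.45, Mrpl18 with -0.43, Mrpl55 with -0.36 and Mrpl40 with -0.31. A pseudogene is named after Mrpl48, so its count is uncertain. Mrpl55 was the most uneven of these in knockouts, at 42.1, 48.4, 57.5 and 45.5 CPM in libraries 512, 513, 515 and 516, and its adjusted p without knockout 516 was 0.0542.

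Among 7 proteins at the exit of the nascent chain, where the ribosome docks at the inner membrane, 6 were called lower, and the median of the 7 log2 fold changes was -0.563. Mrpl45, the large subunit's membrane anchor, stood at 78.9, 90.3, 95.4 and 96.9 CPM in the controls and 64.7, 59.6, 62.5 and 57.1 CPM in the knockouts (log2 fold change -0.57, SE 0.0805, adjusted p = 0.001197, edgeR). Mrpl44, whose protein has an RNase III-like fold, stood at 58.6, 59.5, 63.4 and 63.8 CPM in the controls and 40.99, 39.1, 41.7 and 41.3 CPM in the knockouts, tight in both groups (log2 fold change -0.59, SE 0.0598, adjusted p = 0.000331, edgeR). Mrpl47 had the largest fall of these, -0.74, with the widest controls, 31.9, 42.5, 49.1 and 57.3 CPM in libraries 511, 514, 517 and 518 (edgeR, adjusted p = 0.00796). Mrpl22, Mrpl17 and Mrpl24, which line or border the exit tunnel, had log2 fold changes of -0.56, -0.37 and -0.33. Mrpl23, the member not called here, is described with the other uncalled genes.

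Of the 3 genes assigned to the small subunit's decoding centre and messenger RNA entry 2 were called lower, with a median of -0.301. Mrps5, at the entry, was lower (log2 fold change -0.49, SE 0.0737, adjusted p = 0.00159, edgeR). Mrps24 had a log2 fold change of -0.30 (edgeR, adjusted p = 0.0135). Mrps12, the decoding centre protein whose bacterial counterpart is known for mutations that give streptomycin resistance, was not called. Whether this region differs from the rest was not tested.

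The largest falls came from different places in the ribosome. Mrpl20 (NM_025570, chr4:155803618-155808829, plus strand, mm10), a large subunit protein with a bacterial counterpart, stood at 96.3, 80.1, 81.9 and 97.02 CPM in the controls and 45.6, 41.5, 47.3 and 48.6 CPM in the knockouts, and every control lay far above every knockout (log2 fold change -0.96, SE 0.0887, adjusted p = 0.000232, edgeR). Mrpl50 (NM_178603, chr4:49512597-49521083, minus strand), a mitochondria-specific protein, stood at 119, 96.3, 123 and 141 CPM in the controls and 63.7, 64.98, 69.4 and 67.8 CPM in the knockouts. Its lowest control, 514, was well above its highest knockout (log2 fold change -0.85, SE 0.107, adjusted p = 0.000718, edgeR). Mrps2 (NM_080452, chr2:28468066-28471177, plus strand), which has a bacterial counterpart, stood at 111, 119, 141 and 147 CPM in the controls and 67.97, 72.4, 80.2 and 71.6 CPM in the knockouts, with controls 517 and 518 highest (log2 fold change -0.83, SE 0.101, adjusted p = 0.000624, edgeR). Mrpl34, a small basic protein with a bacterial counterpart, stood at 161, 179, 153 and 159.6 CPM in the controls and 98.3, 95.7, 99.9 and 86.3 CPM in the knockouts (log2 fold change -0.78, SE 0.0744, adjusted p = 0.00027, edgeR). With Mrps18a these are the 5 largest falls of the family.

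The smallest p belonged to Mrps27 (NM_173757, chr13:99344786-99415561, plus strand), a pentatricopeptide repeat protein of the small subunit; such repeats bind RNA. It stood at 92.5, 92.9, 100.4 and 93.7 CPM in the controls and 57.9, 54.9, 61.5 and 55 CPM in the knockouts, with a narrow spread in both groups (log2 fold change -0.73, SE 0.0637, adjusted p = 0.000176, edgeR). Mrpl53 also varied little, at 72.5, 72.6, 70.8 and 73.1 CPM in the controls and 48.6, 48.1, 51.8 and 49.2 CPM in the knockouts (log2 fold change -0.55, SE 0.0554, adjusted p = 0.000322, edgeR). Of its exon bases 88.0% overlap another gene on the same strand, so its counts may hold reads of that gene. The small subunit genes Mrps23, Mrps14 and Mrps21 also passed with a small spread, with log2 fold changes of -0.51, -0.49 and -0.57, and so did Mrpl36 with -0.54.

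**Figure D2:**
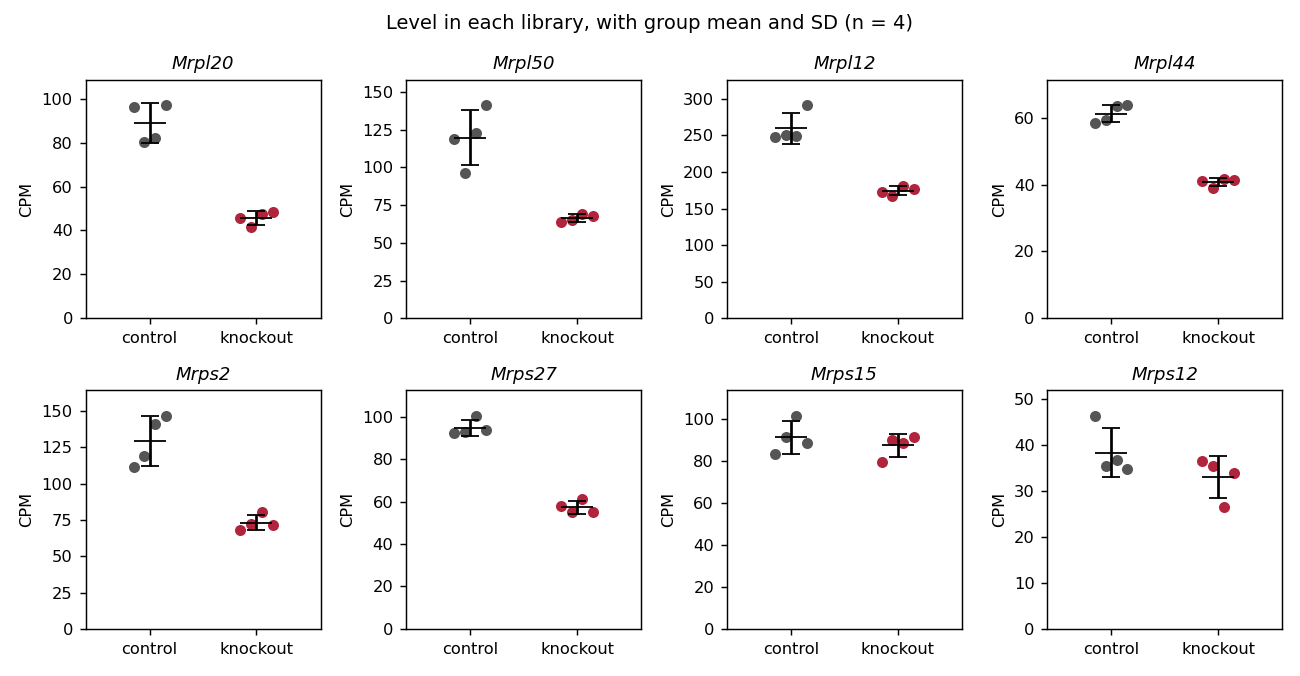
Level in CPM (TMM-scaled, axes from 0) of 8 members in each control (grey) and knockout (red) library, with the group mean and SD (n = 4). The panels show large falls (Mrpl20, Mrpl50, Mrps2), the member of highest level per length (Mrpl12), falls with a narrow spread (Mrpl44, Mrps27) and uncalled genes (Mrps15, Mrps12). The groups overlap only in the Mrps15 and Mrps12 panels.

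The 6 members that were not called differ in kind. Mrps15, a small subunit protein with a bacterial counterpart, stood at 83.3, 91.7, 102 and 88.6 CPM in the controls and 79.6, 90.3, 88.6 and 91.6 CPM in the knockouts, and the groups overlapped almost fully (log2 fold change -0.06, SE 0.0785, adjusted p = 0.5797, edgeR). Mrps9 stood at 81, 85.8, 77.2 and 77.8 CPM in the controls and 73.1, 69.6, 72.7 and 76.98 CPM in the knockouts, with every knockout just below every control (log2 fold change -0.14, SE 0.0627, adjusted p = 0.116, edgeR). Mrpl13 had a log2 fold change of -0.21 and an adjusted p of 0.0526 (edgeR), close to the threshold, and control 511 lay within the knockouts' range.

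Mrps12 was the uneven one, at 46.4, 35.6, 36.8 and 34.8 CPM in the controls and 36.5, 35.4, 26.5 and 33.9 CPM in the knockouts: control 511 was high and knockout 515 low (log2 fold change -0.22, SE 0.126, adjusted p = 0.213, edgeR). Mrpl41 stood at 55.4, 60.9, 43.9 and 51.03 CPM in the controls and 35.8, 42.3, 50.1 and 41.9 CPM in the knockouts, and knockout 515 lay within the control range (log2 fold change -0.31, SE 0.124, adjusted p = 0.0788, edgeR). Without knockout 515 its adjusted p was 0.0449, and without control 517 it was 0.0379, so this gene lies near the threshold. Mrpl23 was barely detected, at 1.13, 1.36, 0.617 and 0.942 CPM in the controls and 0.962, 1.203, 1.105 and 0.897 CPM in the knockouts (log2 fold change 0.04, SE 0.258, adjusted p = 0.923, edgeR). A pseudogene, Mrpl23-ps1, is named after it, so its count is uncertain, and its sign turned without control 517 (-0.13) or knockout 513 (-0.04). Mrpl33 was called lower although its groups overlapped: knockout 512, at 64.6 CPM, lay above control 511, at 61.9 CPM.

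The levels of the members differed far more than their changes did. Per length, the controls ran from 10.4 CPM per kb for Mrpl19 to 277 for Mrpl12, leaving out Mrpl23, a 26.6-fold range, with a median of 62.5 over all 77. Among Mrps genes Mrps21 was the highest, at 170.5 ± 10.7 in controls and 115 ± 6.81 in knockouts (CPM per kb, SD, n = 4), and Mrps33 the lowest, at 10.8 ± 0.795 in controls and 7.95 ± 0.944 in knockouts (CPM per kb, SD, n = 4). Per-length levels rest on the transcript length in the count table. The order of levels was much the same in both groups, with a Spearman correlation across the 77 genes of 0.983 between control and knockout means. Across the same genes the log2 fold change had a Spearman correlation of -0.0366 with the level and -0.189 with transcript length; genes share the libraries and are not independent, so these are descriptions.

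The members are spread over 17 chromosomes, and many start beside another gene. A gene on the opposite strand starts within 1000 bases of 33 members (GENCODE M21, same build), and 1 pair is of 2 members, Mrpl46 and Mrps11, which were both called lower. Of 31 partners that are not members 29 were tested, and 10 of the 29 (34.5%) were called lower and 0 higher, with a median log2 fold change of -0.240. Over all genes tested 18.9% were called lower and 15.4% higher. Their members were called lower in 26 of 29 cases, with a median of -0.476, and the member's value was below its partner's in 24 of 29. Some partners are mitochondrial genes themselves: Ndufs6, a complex I subunit beside Mrpl36, had -0.43, Ndufb5, beside Mrpl47, had -0.52, and Ptcd2, beside Mrps27, had -0.55. At Mrps12 the order was the reverse, since Sars2, the mitochondrial seryl-tRNA synthetase gene that starts 172 bases away, was called lower (log2 fold change -0.75, SE 0.117, adjusted p = 0.00182, edgeR) and Mrps12 was not. Ncapd2, a condensin subunit gene beside Mrpl51, had a log2 fold change of 0.36 (edgeR, adjusted p = 0.0575), while Mrpl51 was called lower. These partners were picked out after their values were seen. Some partners overlap their member, among them Ndufb5 with Mrpl47 and Mrps11 with Mrpl46. Exons on the opposite strand, chiefly of Ndufb5, cover 24.2% of the exon bases of Mrpl47. The values of such pairs may rest on shared reads.

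Counting did not use strand, so reads of overlapping genes cannot be told apart. Over 20% of the exon bases of 8 members lie opposite exons of another gene, from 24.2% in Mrps27 and Mrpl47 to 69.8% in Mrps25, which overlaps Nr2c2. Another 37.0% of Mrps34, 23.2% of Mrps18c and 88.0% of Mrpl53 lie under a gene on the same strand. Leaving out the 10 members so affected, a choice made after seeing the data, left 67, of which 61 were called lower, 0 higher, with a median of -0.461.

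Most other genes of the mitochondrial translation machinery were called lower too. Of 6 ribosome subunits without an Mrp symbol 4 were called lower, with a median of -0.300: Ict1, a large subunit protein with peptidyl-tRNA hydrolase activity (-0.62), Ptcd3, a pentatricopeptide repeat protein (-0.56), Aurkaip1 (-0.31) and Dap3 (-0.28). Chchd1 and Gadd45gip1 had values of -0.17 and -0.19 and were not called. Of 17 translation factors 13 were called lower, with a median of -0.454, among them Gfm2, which splits the ribosome after termination (log2 fold change -0.49, SE 0.0638, adjusted p = 0.000774, edgeR), and Slirp, which with Lrpprc stabilises mitochondrial messenger RNA (log2 fold change -0.55, SE 0.06002, adjusted p = 0.000428, edgeR).

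Of 27 genes for ribosome assembly and ribosomal RNA modification 18 were called lower and 1 higher, with a median of -0.302. Eral1, a chaperone of the small subunit's RNA, had a log2 fold change of -0.56 and Noa1, a GTPase of ribosome assembly, one of -0.77. The gene that rose was Mettl15, a methyltransferase of the small subunit's RNA, from 9.54 to 12.8 CPM (log2 fold change 0.42, SE 0.134, adjusted p = 0.0372, edgeR). Of 17 mitochondrial aminoacyl-tRNA synthetase genes, which charge transfer RNAs, 13 were called lower, with a median of -0.526, including Aars2 (-0.55) and Iars2 (-0.57).

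Respiratory chain genes and cytosolic ribosomal proteins were counted the same way. Of 72 nuclear respiratory chain genes, whose products assemble with those the mitochondrial ribosome makes, 59 were called lower and 1 higher, with a median of -0.360; Cox8b had -0.68 and Ndufb6 -0.52, and Atp5g1 rose from a low level (log2 fold change 1.56, SE 0.368, adjusted p = 0.0114, edgeR). Of 83 tested genes for proteins of the cytosolic ribosome, which makes all other proteins, 20 were called lower and 0 higher by edgeR, while 3 were higher at an unadjusted p under 0.05, and their median was -0.197. That share, 24.1%, lies near the 18.9% of all genes, where the mitochondrial members reached 92.2%. Most of the list still lay below 0, with 76 of 83 genes, against 7273 of all 14178 genes. Rps19 had -0.40 and Rps27l -0.42. Counts of cytosolic ribosomal genes are uncertain because many have near-identical pseudogenes, and differences between the lists were not tested.

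**Figure D3:**
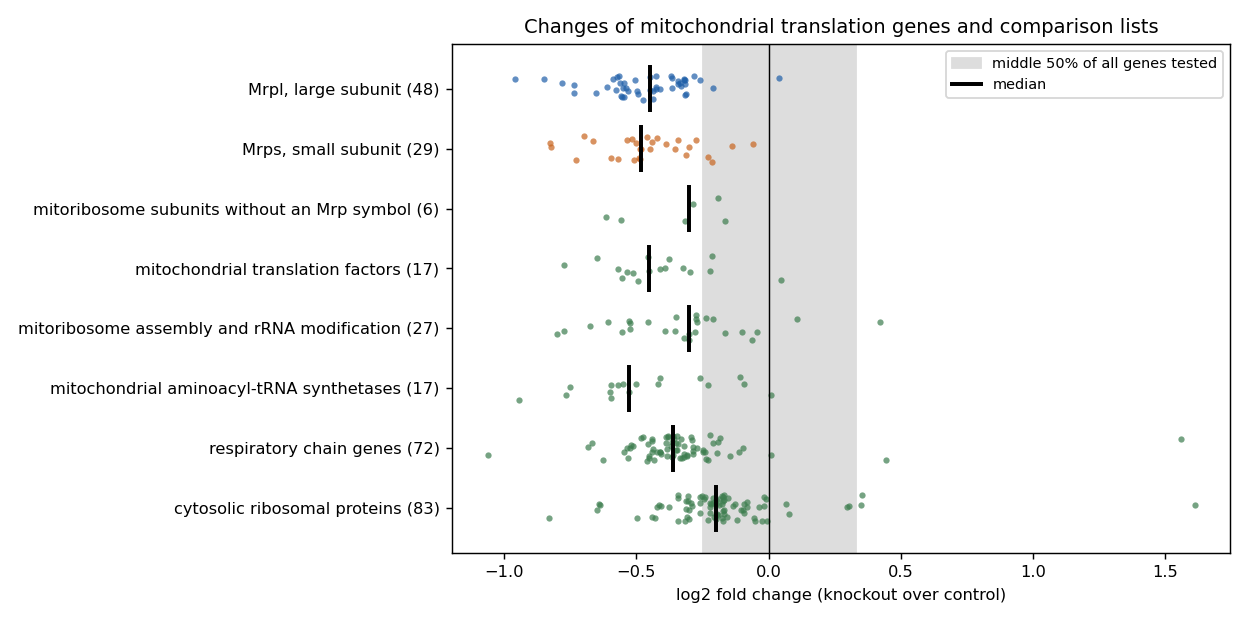
Log2 fold change (knockout over control) of each tested gene in the Mrpl and Mrps groups and in 6 comparison lists, with the number of genes in brackets, the median as a bar and the middle 50% of all genes tested shaded (-0.247 to 0.330). The Mrpl and Mrps medians, -0.448 and -0.481, lie outside the shaded band, and that of the cytosolic ribosomal proteins, -0.197, lies inside it.

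Promoter motifs were counted in windows from 250 bases before to 50 after each RefSeq start (GRCm38.p6), on both strands, in the 68 members with an entry. The NRF1 motif GCGCNTGCG was found in 18 (26.5%), against 7.12% of all 27025 genes in the promoter table and 14.3% of the 10580 tested genes with an entry. The ETS motif CCGGAAGT was found in 12 members (17.6%, against 4.31% and 8.403%), and the YY1 motif AAGATGGCG in 8 (11.8%, against 1.64% and 3.26%). Among the 60 respiratory chain genes with an entry the shares were 35.0% for NRF1, 8.33% for ETS and 11.7% for YY1. Among the 63 cytosolic ribosomal protein genes with an entry they were 14.3%, 19.0% and 6.35%. The motifs were thus not particular to the members. The letters TCAAGGTCA, for the estrogen-related receptors, were in 0 members, 0.466% of all genes and 0.321% of tested genes. The NRF1 letters are nearly their own reverse complement, so 1 site can match on both strands, and genes rather than matches were counted.

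Members with a motif and members without one were mostly called lower. Of 35 members with any of the motifs 34 were called lower, with a median log2 fold change of -0.532, and of 33 with none 29 were, with a median of -0.440. For NRF1 the medians with and without were -0.551 and -0.454, for ETS -0.479 and -0.485, and for YY1 -0.537 and -0.468. The exception among those with a motif was Mrps9, whose NRF1 match is shown above beside those of Mrpl44 and Mrpl12. A match is a description of the letters and not of binding.

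The transcripts of the factors themselves, picked out after their values were seen, gave mixed results. Nrf1 had a log2 fold change of -0.08 (edgeR, adjusted p = 0.512) and Yy1 one of -0.11 (edgeR, adjusted p = 0.228). Gabpa, the DNA-binding subunit of GABP, was called lower (log2 fold change -0.59, SE 0.135, adjusted p = 0.009704, edgeR), with control 511 at 89.3 CPM and knockout 512 at 89.7 CPM overlapping. Esrra, an estrogen-related receptor that drives mitochondrial genes, was called lower without overlap (log2 fold change -0.47, SE 0.0721, adjusted p = 0.00163, edgeR).

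The size of the fall depended on how libraries were scaled to each other. The TMM scaling factors of the controls lay at 0.898 to 0.961 and those of the knockouts at 1.05 to 1.10. With upper quartile factors the median of all genes moved up by 0.103, the members' median was -0.358, and 58 members were called lower (11.5% of all genes) and 0 higher. With library sizes alone the median of all genes moved up by 0.199, the members' median was -0.266, and 45 were called lower (6.56% of all genes) and 0 higher, with 3 members above 0. All genes then split into 1625 lower and 2915 higher, and 930 lower and 4077 higher, in place of 2682 and 2189. A change of scaling factors shifts all genes nearly alike, so the distance between the members' median and that of all genes is nearly fixed across scalings and shows no stability. In the 8 fits that left out 1 library, the members' median minus that of all genes ran from -0.478 to -0.423. Of the members described, Mrpl16, Mrpl55, Mrps18c, Mrps24 and Mrps36 lost their call with upper quartile factors and with the muscle covariate, and Mrps33 with the muscle covariate. With library sizes alone these 6 and Mrpl17, Mrpl22, Mrpl24, Mrpl40 and Mrps30 lost it, all keeping a value below 0. Mrps33 also lost it without knockout 513 or 515 (adjusted p = 0.0529 and 0.0510).

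**Figure D4:**
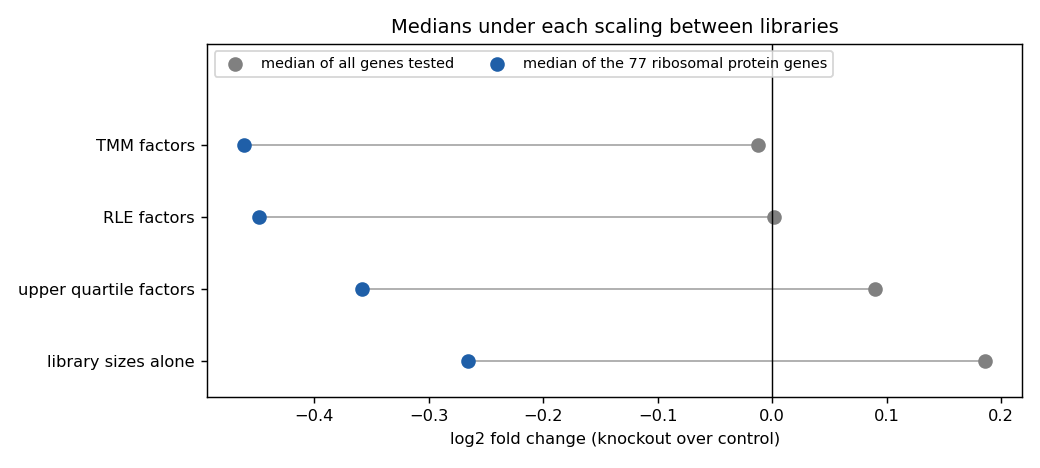
Median log2 fold change (knockout over control) of all genes tested (grey) and of the 77 members (blue) under TMM, relative log expression (RLE), upper quartile and no scaling factors. Both medians shift together to the right, from -0.461 to -0.266 for the members, as a change of scaling factors makes them do.

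Other tools gave like counts. DESeq2 called 72 members lower (20% of all genes) and limma-voom 71 (20.1%). Without knockout 513, the knockout most often lowest for a member, 62 were called lower (13.3% of all genes), the smallest count among the fits that left out 1 library. In the authors' deposited table, made by their own fit, 60 of the 77 members were lower and 0 higher at an FDR under 0.05 (13% of all genes lower), with a median log2 fold change of -0.477.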

How the data were processed

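RNA of brown adipose tissue from 4 control and 4 knockout samples was extracted with Trizol, per the labels' protocols. The submitters' processing notes name TopHat version 2, HOMER, edgeR and the build mm10. The deposited estimated counts were made by the authors per the file headers, with HOMER, over RefSeq exons and without regard to strand; 36.9% of values are not whole, so counts were rounded. Transcript length came from the same table, per the file headers. The authors' comparison table holds their scaled counts (a signal), fold (ratio), p-value, FDR and log2 fold change, per the file headers, and only the log2 fold change and FDR were used.

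The 829 of 30521 rows without a symbol (0.0608% to 0.0824% of counts) were left out. The row with the highest total stood for a symbol. edgeR 4.0.16 (R 4.3.3) tested knockout against control over 14178 genes with filterByExpr (minimum count 10), TMM factors, the quasi-likelihood test, two-sided, calls at a Benjamini-Hochberg adjusted p under 0.05, and a biological coefficient of variation of 0.181. SE is the log2 fold change divided by the square root of F, an approximation. The tests were checked on simulated counts that had a smaller coefficient of variation than these data, so that check does not cover the spread seen here. No label says that samples came from separate mice beyond their numbers, so the p-values cover only the spread among these samples, which may be technical.

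The members, lists, motifs and rules were chosen with earlier results of these data known. Named genes were Kdm1a, in each subunit the 5 smallest p and 2 largest changes in each direction, the highest and lowest level per length and the largest uncalled change, every member of a role group, the Mrps18 paralogs, Mrps30 and Mrps36, and the 2 smallest p in each direction of each list; of these 40 members most are described. Genes outside the rule (Mrpl13, Mrps9, Mrps15, Mrpl33, Mrpl19, Mrpl51, partners and factors, and list members other than these) were picked after their values were seen. List names matched by symbol or RefSeq synonym, except Mtrfr. Alternatives were other scalings, no low-count filter, summed rows, a muscle covariate, DESeq2 1.42.0, limma-voom (limma 3.58.1), each library left out and overlapping members left out.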

Additional observations from a re-analysis of the deposited data

Results flagged for a closer look

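Levels of the 40 named members and 4 library summaries were checked in each group of 4 libraries for a value far from the other 3, which gave 4 such values in 88 groups; chance alone flags about 1 in 20 groups. Mrpl12 in control 518 stood at 291 CPM, above 248 to 250.4 CPM in the other controls. Mrps27 in control 517 stood at 100.4 CPM, above 92.5 to 93.7 CPM in the others. Mrpl55 in control 514 stood at 58.9 CPM, below 62.9 to 63.7 CPM in the others. Mrpl22 in knockout 516 stood at 13.9 CPM, above 10.7 to 11.2 CPM in the other knockouts. These genes were called lower with all libraries in.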

How the results depend on the processing

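No paired analysis was possible because the replicate numbers differ between the groups. Neither the reported fit nor the other 16 fits called a member higher; DESeq2 changes test and scaling together. In all 17, 45 members (30 Mrpl and 15 Mrps) were called lower, against 6.20% of all genes tested, and 60 in all 8 fits that left out 1 library, against 12.3%. With library sizes alone 45 members were lower, 15 of them Mrps, and the medians were -0.266 for both subunits, -0.251 for Mrpl and -0.284 for Mrps. Upper quartile factors gave medians of -0.358, -0.346 and -0.378. The muscle covariate left 17 Mrps genes lower, with their median at -0.468. Leaving out 1 library at a time gave 62 to 71 members lower (13.3% to 18.5% of all genes), 40 to 45 Mrpl and 22 to 26 Mrps, with 0 higher, and medians of -0.487 to -0.419, -0.480 to -0.428 and -0.494 to -0.415. The difference of the medians, Mrpl minus Mrps, was 0.0328 in the reported fit. With 1 library left out it ran from -0.0133 to 0.0219, so it was always below the reported value and its sign was not stable. Mrpl23 changed sign without control 517 (-0.13) and without knockout 513 (-0.04), and was 0.21 without control 514. The cause of these changes was not tested.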
